A study of Mus musculus with 24 samples.

Results

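Loss of huntingtin in mouse neural progenitor cells (NPC) was examined by comparing the small RNAs of an Htt knockout (KO) line with those of wild-type (WT) cells. The comparison used 4 of the 24 small RNA libraries of the series, 2 biological samples of KO NPC and 2 of WT NPC, chosen by genotype and cell type in the sample labels. The series also holds NPC and mouse embryonic stem cells (mESC) of 4 heterozygous knock-in lines, in which 1 Htt allele carries a CAG tract of 20, 50, 92 or 111 repeats (named Q20, Q50, Q92 and Q111, with 89 in place of 92 in the growth protocol). The 8 knock-in NPC libraries were used here to estimate the spread between samples and to place KO and WT, and the 4 KO and WT mESC libraries to compare the KO effect between cell types. KO NPC were of genotype Htt knockout, and WT NPC of genotype wild type. How the KO allele was made, whether KO and WT come from 1 parental line and how many clones were used are not given in the sources used here, so the genotype and the line cannot be told apart. The protocols in the labels give 1 treatment for all NPC. Stem cells were moved to serum-free N2B27 medium, replated on laminin after 7 days and passaged as adherent progenitors in NS medium with FGF and EGF.

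Huntingtin is a large scaffold protein, and an expanded CAG tract in the first exon of its gene causes Huntington's disease. Most of what these libraries captured was small nucleolar RNA (snoRNA). Box C/D snoRNAs guide 2'-O-methylation of ribosomal and spliceosomal RNA, and box H/ACA snoRNAs guide pseudouridylation. In mammals most of them are cut out of introns after splicing, so that 1 host transcript yields both its mature RNA and its snoRNAs, and the trimmed snoRNA is held in a stable particle with fibrillarin or dyskerin.

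Of the 6 genes that differed between KO and WT, 5 were snoRNAs and all 5 were lower in KO. The sequences of 4 of them are shown because they carry that result, together with Snord49b and Snord65, which lie in introns of the same host as Snord49a. They are GENCODE release 21 transcripts (GRCm38), written 5′ to 3′ in DNA letters. Capitals mark the first TGATG, which is part of the box C motif, and the last CTGA, the box D motif. The fifth, Gm23301, is described without its sequence.
Snord49a: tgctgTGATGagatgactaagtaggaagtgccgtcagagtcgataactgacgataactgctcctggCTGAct
Snord49b: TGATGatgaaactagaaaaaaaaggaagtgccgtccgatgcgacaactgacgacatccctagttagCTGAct
Snord65: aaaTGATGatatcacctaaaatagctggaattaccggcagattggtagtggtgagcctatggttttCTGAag
Snord43: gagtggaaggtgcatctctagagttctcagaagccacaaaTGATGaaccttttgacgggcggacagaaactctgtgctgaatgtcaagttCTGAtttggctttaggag
Gm24494: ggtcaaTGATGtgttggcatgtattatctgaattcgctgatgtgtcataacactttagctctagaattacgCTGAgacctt
Gm24837: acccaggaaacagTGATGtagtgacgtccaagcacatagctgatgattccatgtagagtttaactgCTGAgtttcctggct

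Snord49a lies at chr11:62603450-62603521 on the plus strand, in an intron of 2410006H16Rik, a noncoding host transcript. Snord49b (chr11:62603079-62603150) and Snord65 (chr11:62604515-62604586) lie in other introns of that host. Snord49a and Snord49b share a run of 13 bases, AGGAAGTGCCGTC, whereas the longest run that Snord49a shares with Snord65 is 6 bases, TGATGA. Snord43 lies at chr15:80082847-80082954 on the minus strand, in an intron of the ribosomal protein gene Rpl3. GENCODE gives it the miRNA biotype, and RefSeq lists it as a snoRNA. Gm24494 (chr3:153911610-153911690, minus strand) lies in an intron of Rabggtb, which encodes a subunit of the Rab geranylgeranyl transferase. Gm24837 (chr4:41211502-41211582, minus strand) lies in an intron of Ubap2. A TGATG followed by a CTGA was present on the RNA strand of all 5 lower snoRNAs, of 77 of the 106 snoRNA genes tested (72.6%) and of 30.3% of the 1508 snoRNA transcripts of the release. This is a match of letters and not a mapped site. No 30-base stretch of Snord49a, Snord43, Gm24494 or Gm24837 occurred in the GENCODE transcripts of a gene at another place. Introns and unannotated sequence were not searched.

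The total count was 385365 and 351955 in KO replicates 1 and 2 and 682113 and 440699 in WT replicates 1 and 2, so both KO libraries were shallower than both WT libraries. The labels state about 15M reads of 50 bases per sample, of which 2.35% to 4.55% were assigned to genes in these 4 libraries. A count of 0 therefore allowed a level of up to 4.398 to 8.52 CPM of the library total (CPM is the count per 1000000 counts; the value is that of 3 counts and covers counting error only). Genes of snoRNA biotype held 51.6% and 59.4% of counts in KO and 57.4% and 62.6% in WT, while the misc_RNA biotype, mostly the Y RNA Rny1, held 28.0% and 16.3% in KO and 22.6% and 13.2% in WT. Replicate 1 was thus the library with more Y RNA and less snoRNA in both genotypes. The targeted gene, Htt, had 9 and 2 counts in WT replicates 1 and 2 and 1 count in either KO replicate, which is the order of the labels but too few counts to test. Progenitor identity was checked by marker mRNA fragments. Of 31 radial glia and progenitor mRNAs, 29 had a count in at least 1 of the 4 libraries, with sums of 260 and 201 counts in KO and 382 and 296 in WT. Pluripotency mRNAs had 2 and 0 counts in KO and 0 in both WT libraries, and the 14 endoderm and mesoderm mRNAs had none. The 12 ES-cell microRNA genes also had 0 counts in all 4. Sums of the 14 fibroblast feeder mRNAs were 6 and 3 counts in KO and 8 in each WT library. Glia mRNAs summed to 11 and 5 in KO and 21 and 7 in WT, and neuron mRNAs to 16 and 12 against 32 and 10. Their part in the differences below was not tested. Each group has 2 samples, so all p-values measure the spread between these samples, pooled over the 12 NPC libraries, and in bulk RNA a smaller number of cells and less RNA per cell cannot be told apart.

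Compared with WT NPC, the imprinted gene Peg10 was higher in KO NPC and 5 abundant snoRNAs were lower, with log2 changes of -0.48 to -0.62. Of 441 genes that passed the filter on low counts, edgeR's quasi-likelihood test called 6 (1.36%) at a Benjamini-Hochberg adjusted p under 0.05, with 1 higher (0.227%) and 5 lower (1.13%) in KO, and 51 genes had an unadjusted p under 0.05. Against the mean of the knock-in groups, given below, WT and not KO was called for Gm24494, Snord43, Gm23301, Gm24837 and Peg10. For Snord49a it was KO and not WT. Levels are given as CPM, the count divided by the library total of the tested genes scaled by TMM, times 1000000. TMM is a factor that brings the bulk of the genes to a common level.

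Snord49a, a box C/D guide, took 7.02% and 8.13% of all counts in KO and 8.42% and 9.92% in WT. Its level was 63180 and 71850 CPM in the KO libraries and 89900 and 98020 CPM in the WT libraries. Both KO values lay below both WT values. The KO mean was 67510 ± 6136 CPM and the WT mean 93960 ± 5745 CPM (SD, n = 2 each), and the log2 change was -0.48 ± 0.09 (SE, edgeR quasi-likelihood adjusted p 0.00800). Gm24494 stood at 22010 and 24320 CPM in KO and at 35340 and 32970 CPM in WT. The groups were again separate, and Gm24494 was lower in KO than in WT by 0.56 ± 0.10 on the log2 scale (SE, edgeR adjusted p 0.00800). Snord43, a box C/D guide of the Rpl3 gene, had 20510 and 23390 CPM in KO and 33000 and 31840 CPM in WT. It was lower in KO than in WT by 0.56 ± 0.11 on the log2 scale (SE, edgeR adjusted p 0.00800), and its WT libraries were closer to each other than its KO libraries. Gm23301 (chr18:75001455-75001519, plus strand), in an intron of the ribosomal protein gene Rpl17, had 29740 and 34700 CPM in KO against 45840 and 45260 CPM in WT. The change was -0.50 ± 0.10 on the log2 scale (SE, edgeR adjusted p 0.0112). Gm24837, the least abundant of the 5, had 1417 and 1607 counts in KO and 3715 and 2423 in WT, or 3310 and 4036 CPM against 5818 and 5433 CPM. It was lower in KO than in WT by 0.62 ± 0.14 on the log2 scale (SE, edgeR adjusted p 0.0241). In each of the 5, the lower KO library was replicate 1 and no KO library reached a WT library.

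**Figure D1:**
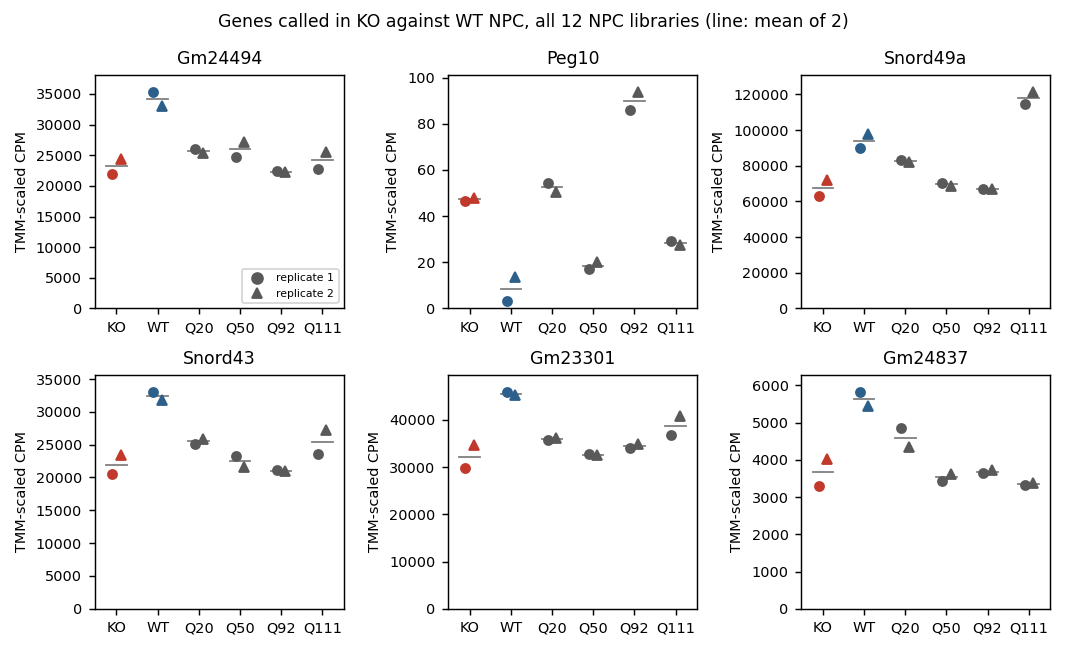
TMM-scaled CPM (linear axes from 0) of the 6 genes called in KO against WT, in each of the 12 NPC libraries, with circles for replicate 1, triangles for replicate 2 and a line at the mean of the 2. The KO and WT libraries are separate in every panel, and for all but Snord49a both WT libraries lie outside the range of the 8 knock-in libraries.

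These 6 calls rested on the scaling and on single libraries. Under TMM the median of all 441 log2 changes was 0.08. With library totals as the scale it was 0.29, a shift of 0.207, and Peg10 was the 1 call left. The 5 snoRNAs then had log2 changes of -0.27 to -0.40 and were not called. Without the filter on low counts they were larger, at -0.85 to -1.005, and not called. Taken relative to the median of all genes with a count, their changes were -0.57 to -0.70 with TMM and with library totals. A change of scaling moves all genes by nearly the same amount, so this agreement was fixed in advance and is no separate evidence. Without KO replicate 1, 0 genes were called by edgeR (38 at an unadjusted p under 0.05). Without WT replicate 1 the call of Snord49a was the only one, and without WT replicate 2 there were 22, 6 higher and 16 lower, with all 6 genes among them. A fit of the 4 libraries alone called 0, with 22 at an unadjusted p under 0.05. The direction was kept by each of the 6 in every alternative run, and the adjusted p-values of these genes ranged from 0.000646 to 0.858 over them. Compared among snoRNA genes alone, a setting chosen after seeing the data, the 5 remained called at smaller changes of -0.20 to -0.34. Their edgeR adjusted p-values there lay between 0.00957 and 0.0366, and in that fit Snord82, Snord32a and AF357428, named after their values were seen, were called higher.

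**Figure D2:**
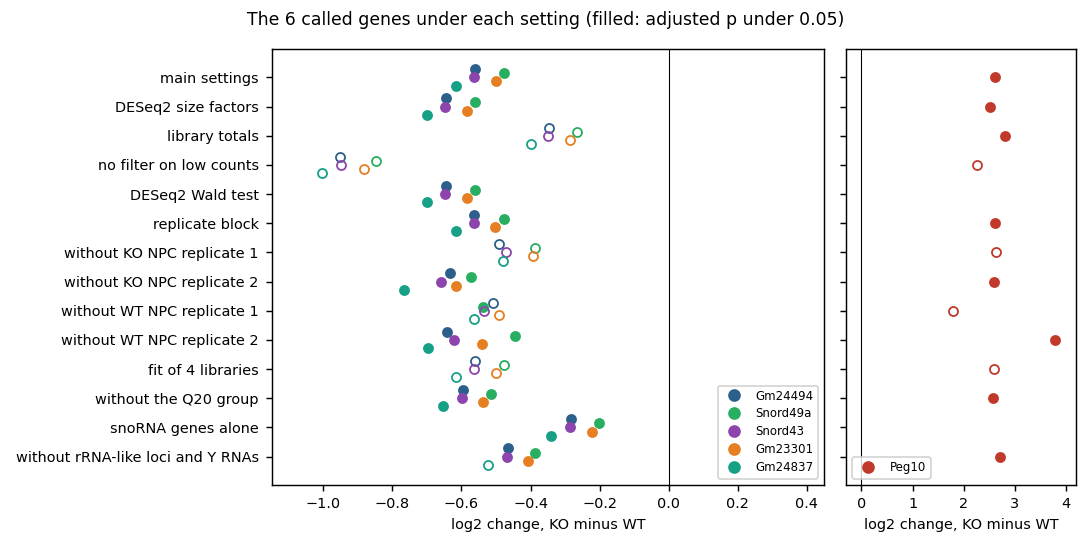
Log2 change between KO and WT NPC (x axis) of the 5 lower snoRNAs (left) and of Peg10 (right) under each processing setting (y axis), with filled points for an adjusted p under 0.05 and open points otherwise. All points stay on 1 side of 0, and open points gather at library totals, at no filter, at the fit of 4 libraries and where replicate 1 of KO or WT was left out. DESeq2 gave no adjusted p for Peg10, which has no point there.

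Other snoRNAs in introns of the same hosts were compared with the called ones. Genes in this paragraph were named because they share a host with a called snoRNA. In 2410006H16Rik, Snord49b had 5072 and 5988 CPM in KO and 8074 and 8157 CPM in WT. Its libraries were separate and its log2 change was -0.55 ± 0.14 (SE), above the threshold with an edgeR adjusted p of 0.0558. Snord65 had 47310 and 54760 CPM in KO and 61440 and 68440 CPM in WT, a log2 value of -0.35 ± 0.10 (SE, edgeR adjusted p 0.106). The 3 snoRNAs of this host thus had the same sign, and 1 of the 3 was called. In Rpl17, Gm26202, in which 2.78% of the 30-base stretches occur also in Gm23301, had 25040 and 27030 CPM in KO and 33010 and 32770 CPM in WT (edgeR adjusted p 0.106), and Snord58b had 2320 and 2831 CPM against 3178 and 3558 CPM (edgeR adjusted p 0.267). Snord58b shares 70.3% of its 30-base stretches with Gm22354, so its counts are uncertain. Snord83b in Rpl3 had 20760 and 21240 CPM in KO and 26990 and 22300 CPM in WT, with an edgeR adjusted p of 0.435 against 0.00800 for Snord43 of the same gene. Gm22888 in Ubap2 had 151.8 and 148.2 CPM in KO and 173.8 and 174.9 CPM in WT (edgeR adjusted p 0.873). Whether snoRNAs of 1 host differed from each other was not tested. Exons of the hosts themselves were barely captured: the 5 host genes had 0 to 5 counts in any of the 4 libraries, and Rpl17 had 1 count in all.

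Across all snoRNA genes the difference under TMM followed abundance. Of the 106 tested, 105 had a count in the 4 libraries, and 70 of them had a log2 value below 0 and 35 above 0. The median was -0.16, beside 0.09 over all 437 genes with a count. Under library totals the sign turned, with a median of 0.06 beside 0.30 over all genes. Relative to all genes the median was -0.25 and -0.24 under the 2 scalings. These had to agree, because a change of scaling moves all genes by nearly the same amount. KO was below WT without overlap for 41 of the 105 and above for 11. Over all genes tested, KO lay below without overlap for 15.4% and above for 20.6%. The 27 snoRNA genes with the highest mean CPM over the 12 NPC libraries (3740 to 83080 CPM, not divided by length) had a median of -0.34. Among them 25 were below 0, KO was below WT without overlap for 23, and all 5 called genes were there. The next 27 (326.2 to 3404 CPM) had a median of -0.17 with 22 below 0. The 2 lower bins of 26 genes each had medians of 0.08 and 0.05, with 11 and 12 below 0. Counting error is smaller for abundant genes, so these bins differ in precision as well. The bins were taken under TMM alone. Low-count genes outside the snoRNAs also lay above 0: the 251 protein-coding genes tested, with a median level of 17.2 CPM, had a median of 0.28. The gradient is thus not shown to be particular to snoRNAs.

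**Figure D3:**
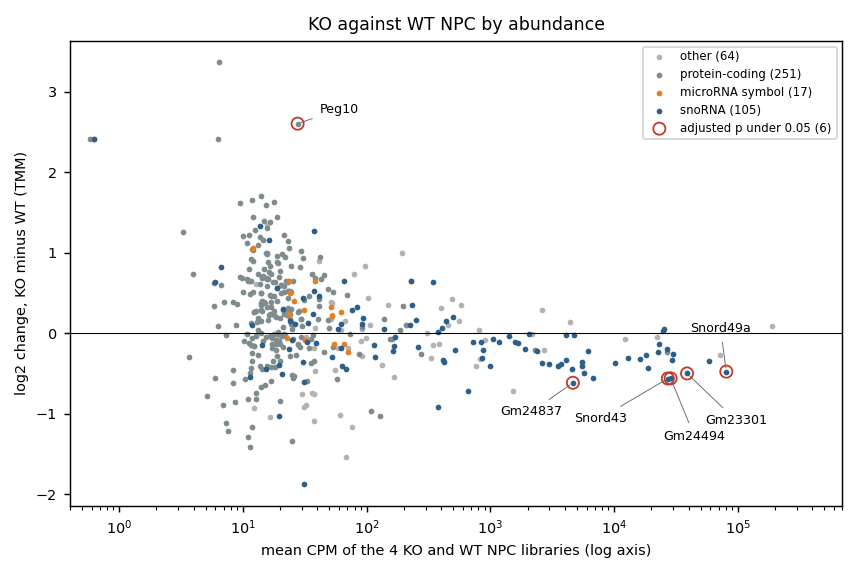
Log2 change between KO and WT NPC under TMM (y axis) against the mean CPM of the 4 libraries (log x axis), for the 437 tested genes with a count, coloured by class, with the 6 called genes ringed. The snoRNAs above 1000 CPM lie mostly between 0 and -0.62, whereas genes under 100 CPM spread widely on both sides of 0.

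Split by kind, the 41 tested box C/D snoRNAs named Snord had a median log2 value of -0.22, with 35 below 0, 6 above 0 and 2 called lower (Snord49a and Snord43). Under library totals that split was gone, with 21 below 0, 20 above 0 and a median of -0.0037. Snord59a, for example, had 22600 and 27710 CPM in KO and 28640 and 28860 CPM in WT. The 11 tested box H/ACA snoRNAs named Snora had a median of -0.14, with 8 below 0 and none called. Snora31, hosted by Tpt1, had 355.1 and 384.3 CPM in KO and 457.3 and 473.1 CPM in WT. Snora62 lay the other way, at 254.6 and 263.7 CPM in KO against 177.0 and 230.9 CPM in WT. Snora21 had 254.6 and 582.7 CPM in KO, so its 2 KO libraries differed more from each other than the WT libraries at 261.6 and 278.0 CPM did. Of the 47 snoRNA genes with only a Gm or clone name, 26 were below 0 and 21 above 0 (median -0.08), and 3 were called lower. Among them Gm22980 had 24800 and 29990 CPM in KO and 31990 and 33330 CPM in WT. The medians of the Snora genes and of the unnamed genes were above 0 under library totals, at 0.07 and 0.14.

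Small Cajal body RNAs (scaRNAs) guide modification of spliceosomal RNA. The tested ones named Scarna lay on the other side, with 5 of 6 above 0 (median 0.19) and none called. Of 10 tested genes of scaRNA biotype, which carry Scarna or Gm names, 7 were above 0 and 3 below 0 (median 0.20). Scarna6 had 556.0 and 567.7 CPM in KO and 457.3 and 378.9 CPM in WT. Scarna17 had 490.6 and 386.8 CPM against 328.9 and 381.2 CPM, so that both had separate groups, whereas the groups of Scarna9 and Scarna10 overlapped. Scarna17 shares 82.0% of its 30-base stretches with Gm25443, so its counts are uncertain. Spliceosomal snRNA genes had 12 of 13 values below 0 (median -0.19, or 0.01 under library totals), and none was called. From 14.9% (Gm22265) to 87.7% (Rnu12) of the 30-base stretches of these snRNA genes occur in other genes. Their values are thus not 13 separate observations. Rnu5g, a U5 snRNA gene, had 612.0 and 1163 CPM in KO and 538.8 and 1345 CPM in WT. For Rnu5g the replicates differed more than the genotypes did.

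Y RNAs are short RNAs bound by the Ro60 protein, and Rny1 was the most counted gene of these libraries. Its level was 248900 and 140700 CPM in KO and 238300 and 128100 CPM in WT. Replicate 1 exceeded replicate 2 in both genotypes, and the groups overlapped (edgeR adjusted p 0.943). Rny3 had 2203 and 2138 CPM in KO and 2503 and 1847 CPM in WT. Rpph1, the RNA of RNase P, had 803.6 and 838.9 CPM in KO and 756.5 and 836.3 CPM in WT. Rn7sk, which holds the elongation factor P-TEFb inactive, had 296.7 and 319.0 CPM against 325.8 and 287.0 CPM. Neither separated the genotypes. For Rn7sk, 73.5% of the 30-base stretches occur in other genes, so its counts are uncertain. The vault RNA Vaultrc5 had 9 and 13 counts in KO and 25 and 23 in WT, separate but not called (edgeR adjusted p 0.459). Of 19 mitochondrial transcripts, 12 were below 0 and 7 above 0 (median -0.07, or 0.12 under library totals) and none was called. mt-Rnr2 had 13100 and 10610 CPM in KO and 15250 and 9695 CPM in WT.

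**Figure D4:**
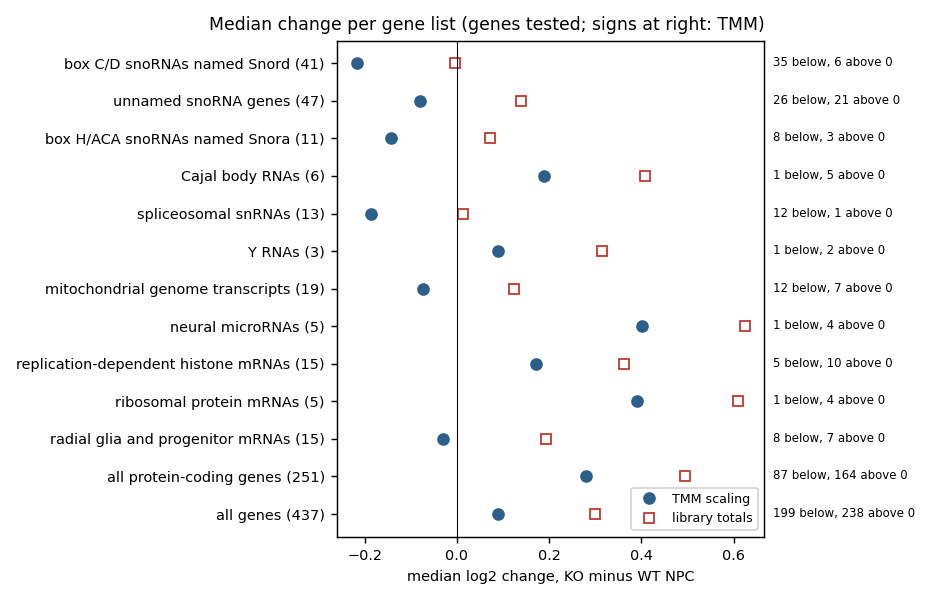
Median log2 change between KO and WT NPC (x axis) for each gene list (y axis, with the number of members tested that had a count), as filled circles under TMM and open squares under library totals, with the number of members on each side of 0 under TMM at the right. Every square lies to the right of its circle by about the shift of all genes. The lists of snoRNAs, snRNAs, mitochondrial transcripts and progenitor mRNAs lie to the left of all genes under both scalings.

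MicroRNAs silence mRNAs through their seed, bases 2 to 8, and those listed here are known from neural progenitors. Of the 1190 genes with a microRNA symbol, 144 had a count in the 4 libraries and 20 were tested. Together the 1190 held only 0.088% and 0.161% of counts in KO and 0.059% and 0.124% in WT. Among the 17 tested that had a count, 12 were above 0 and 5 below 0 (median 0.29), beside 238 above and 199 below over all genes. None was called. Their mature sequences, from RefSeq (GRCm38.p6, 19 of the 20 genes matched), are shown for the most counted neural ones, with the seed in capitals. The counts are per hairpin gene and do not tell which arm was read. A read of miR-181a-5p or miR-9-5p alone cannot be assigned to 1 of the genes that carry it, so the counts of those genes are uncertain.
miR-181a-5p: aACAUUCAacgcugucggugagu
miR-9-5p: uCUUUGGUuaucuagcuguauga
miR-99b-5p: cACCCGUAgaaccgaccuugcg
Mir181a-1 and Mir181a-2 carry the same miR-181a-5p. Mir181a-1 had 87 and 142 counts in KO and 60 and 120 in WT, or 203.2 and 356.7 CPM against 93.97 and 269.1 CPM, and its exon overlaps that of A430106G13Rik. The groups overlapped (edgeR adjusted p 0.543). Mir181a-2 had 60.74 and 52.75 CPM in KO and 34.46 and 58.29 CPM in WT. Mir9-1 and Mir9-3 carry the same miR-9-5p. Mir9-1 had 15 and 9 counts in KO and 12 and 8 in WT, and Mir9-3 had 15 and 10 against 17 and 8. Mir99b had 32.70 and 90.42 CPM in KO and 37.59 and 100.9 CPM in WT, with replicate 2 the higher library in both. These 5 microRNA genes rested on 8 to 142 counts per library.

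Peg10, a retrotransposon-derived gene expressed from the paternal allele, was the 1 gene called higher. It lies at chr6:4747306-4760517 on the plus strand, with exons that overlap no other gene. Peg10 had 20 and 19 counts in the KO libraries and 2 and 6 in the WT libraries, or 46.72 and 47.72 CPM against 3.13 and 13.45 CPM. The KO mean was 47.2 ± 0.71 CPM and the WT mean 8.29 ± 7.30 CPM (SD, n = 2 each). The log2 change was 2.60 ± 0.50 (SE, edgeR adjusted p 0.00800). It was 1.79 without WT replicate 1, where it was not called (edgeR adjusted p 0.0747, range over its alternatives 0.00141 to 0.636). The value rests on 8 counts in WT, and 50-base reads of an mRNA in a small RNA library count its fragments, not its intact transcripts. Of the other imprinted genes tested, none was called. Rian, a noncoding transcript of the maternal Dlk1-Dio3 region whose exons overlap several small RNA genes, had 43 and 40 counts in KO and 43 and 23 in WT. That came to 100.4 and 100.5 CPM against 67.35 and 51.57 CPM (edgeR adjusted p 0.308). Mest had 9.34 and 17.58 CPM in KO and 12.53 and 60.54 CPM in WT, with WT replicate 2 far above the rest. Peg3 had 4 and 0 counts in KO and 1 in each WT library.

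Fragments of 251 protein-coding genes were tested, with 164 above 0 and 87 below 0 (median 0.28, and 0.49 with 202 above 0 under library totals). Peg10 was the only one called. The median of their mean levels was 17.2 CPM, and all 21899 protein-coding genes of the table, tested or not, together held 5.25% to 6.44% of the counts. KO lay above WT without overlap for 71 of the 251 tested and below for 15. Over all 441 genes the shares were 20.6% above and 15.4% below. Of 15 progenitor mRNAs tested, 7 were above 0 and 8 below 0 (median -0.03, or 0.19 under library totals). Slc1a3, the glutamate transporter of radial glia, had 49.06 and 97.96 CPM in KO and 90.84 and 199.5 CPM in WT. These groups overlapped, with replicate 2 the higher library in each (edgeR adjusted p 0.308). Fabp7, a lipid-binding protein of radial glia, had 53.73 and 30.14 CPM in KO and 51.68 and 47.08 CPM in WT, and Vim had 37.38 and 25.12 CPM against 26.63 and 29.15 CPM. Ptprz1 had 65.41 and 37.68 CPM in KO and 67.35 and 29.15 CPM in WT. None of these 3 separated the genotypes. Of 15 histone mRNAs tested, 10 were above 0 (median 0.17) and none was called. Hist1h3b had 22 and 95 counts in KO and 36 and 92 in WT, so replicate 2 was far higher in both genotypes. Of 5 ribosomal protein genes, 4 were above 0 (median 0.39). The 1 below 0 was Rpl7a, with 1979 and 2293 CPM in KO and 2349 and 2585 CPM in WT. Exons of Rpl7a overlap the genes Gm22879 and Gm24134, and 40.0% of its 30-base stretches occur in other genes. Its counts thus cannot be assigned to the ribosomal protein mRNA. Rps3, whose exons overlap Snord15b, was above 0, at 18.69 and 15.07 CPM against 14.10 and 11.21 CPM.

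A further 30 genes were at least 10 CPM on average, differed by at least 1 on the log2 scale and had separate groups without being called. Of these, 22 were higher and 8 lower in KO, and the 8 with the smallest unadjusted p per direction are given as values. AF357428, a snoRNA of the Dlk1-Dio3 region (chr12:109679945-109680013), had 16 and 28 counts in KO and 15 and 9 in WT. Its log2 value was 1.27 ± 0.37 (SE, edgeR adjusted p 0.106). Cdkn1a, the cell cycle inhibitor p21, had 9 and 6 counts in KO and 3 in each WT library. Fth1, the ferritin heavy chain, had 9 and 10 against 4 and 4. Hist1h1d, a linker histone, had 12 and 14 counts in KO against 6 and 9. Eif4a2, whose exons overlap several snoRNA genes, had 12 and 10 against 3 and 6. Pank3, Srsf1 and Itgb1 were also higher, with log2 values from 1.31 to 1.71 and at most 11 counts in any library. On the lower side, Snord23, a box C/D snoRNA in an intron of Nop53 (chr7:15938762-15938870), had 6 and 5 counts in KO and 38 and 17 in WT. Its log2 value of -1.88 ± 0.48 (SE) was the lowest of all genes tested and missed the threshold, with an edgeR adjusted p of 0.0624. Snord23 was called lower with DESeq2 size factors (edgeR adjusted p 0.0377) and without WT replicate 2 (edgeR adjusted p 0.00985), and its adjusted p over the alternatives reached 0.636. The snRNA genes Gm24265 and Gm24407, neighbours on chromosome 5, share 63.4% of their 30-base stretches with other genes. Gm24265 had 14 and 15 counts in KO and 95 and 23 in WT, and Gm24407 had 11 and 9 against 43 and 15. Every 30-base stretch of Gm23935 occurs in other genes, so its 18 and 16 against 73 and 22 counts cannot be assigned to it. In these 3 genes WT replicate 1 was far above WT replicate 2, and all 3 were called lower without WT replicate 2. The others were Gm22728 (a gene of scaRNA biotype in an intron of G3bp2), Msi2, Usp34 and Nes. Msi2, which encodes an RNA-binding protein of progenitors, had 2 and 3 counts in KO and 10 and 8 in WT. Nes, the intermediate filament nestin, had 3 and 2 against 6 and 10 (edgeR adjusted p 0.525).

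The knock-in lines carry a CAG tract of known length in 1 Htt allele, the shortest being Q20, and give a second reference for both genotypes. KO and WT were each compared with the mean of the 4 knock-in groups, 2 comparisons that share the knock-in libraries with each other and the KO or WT libraries with the direct one. KO against the knock-in mean called 15 of 441 genes (3.4%), 7 higher (1.59%) and 8 lower (1.81%). WT against the same mean called 34 (7.71%), 24 higher (5.44%) and 10 lower (2.27%). For 4 of the 5 lower snoRNAs the WT side was called and the KO side was not. Gm24494 was 0.48 ± 0.08 above the knock-in mean in WT (SE, edgeR adjusted p 0.00166) and -0.08 ± 0.08 from it in KO (edgeR adjusted p 0.782), on the log2 scale. Its 8 knock-in libraries lay between 22280 and 27170 CPM, below both WT libraries. Snord43 had log2 values of 0.46 ± 0.08 in WT and -0.10 ± 0.09 in KO against that mean (SE). Gm23301 had 0.37 ± 0.08 and -0.13 ± 0.08, and Gm24837 had 0.58 ± 0.10 and -0.03 ± 0.11 (SE, WT and KO in turn). Snord49a was the exception. It was called on the KO side, at -0.28 ± 0.07 (SE, edgeR adjusted p 0.0457), and not in WT, at 0.20 ± 0.07 (SE, edgeR adjusted p 0.115), with knock-in libraries from 66810 to 121400 CPM. Snord49b and Snord65 were also called on the KO side, at -0.44 ± 0.11 and -0.32 ± 0.08 (SE, edgeR adjusted p 0.0457 each). Peg10 was -2.35 ± 0.44 below the knock-in mean in WT (SE, edgeR adjusted p 0.00295) and 0.25 ± 0.31 from it in KO (edgeR adjusted p 0.814). The Q92 libraries had 43 and 46 counts of it, the Q20 libraries 25 and 27, those of Q111 9 and 11 and those of Q50 7 each, so the knock-in lines differed among themselves by more than their replicates did.

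Both genotypes stood apart from the knock-in lines in Gm25848 and Snord87, chosen after their values were seen. Gm25848, a snoRNA gene in an intron of Fbxo45, had 98.11 and 103.0 CPM in KO, 90.84 and 85.20 CPM in WT and 6.48 to 57.91 CPM in the knock-in libraries. It was 1.82 ± 0.27 higher in KO and 1.64 ± 0.27 higher in WT on the log2 scale (SE, edgeR adjusted p 0.00164 and 0.00166), and 13.9% of its 30-base stretches occur in other genes. Snord87, in an intron of Snhg6, was 0.38 ± 0.08 higher in KO and 0.52 ± 0.08 higher in WT (SE, edgeR adjusted p 0.0444 and 0.00166). The KO calls depended on the setting. DESeq2 size factors left 3 of the 15, each single knock-in library left out gave 1 to 3, and the mean of Q50, Q92 and Q111 without Q20 left Gm25848 as the only one. Q20 NPC also held ES-cell microRNAs, at 201 and 233 counts against 0 in the KO and WT libraries. The WT calls numbered 30 without Q20, of which 25 were among the 34.

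**Figure D5:**
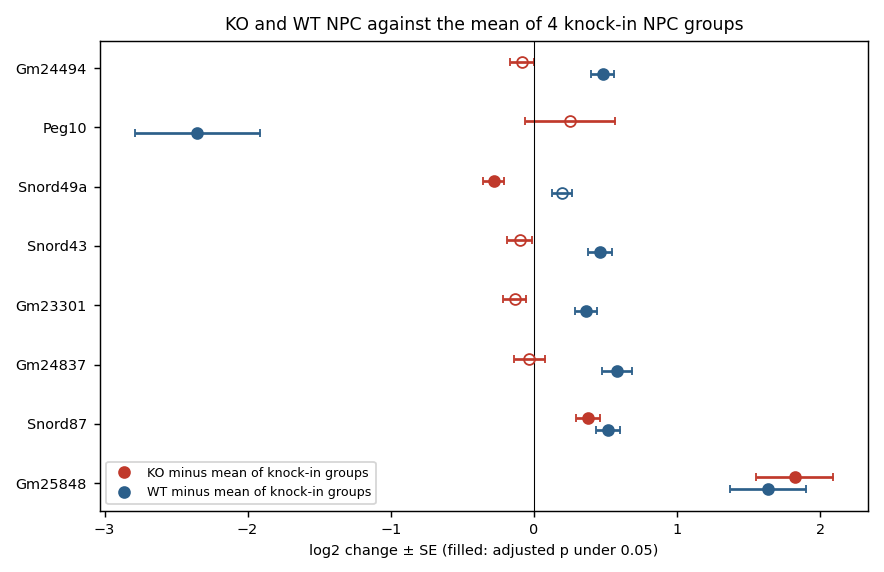
Log2 change (x axis, with SE bars) of KO NPC (red) and of WT NPC (blue) against the mean of the 4 knock-in NPC groups, for the 6 called genes, Snord87 and Gm25848, with filled points for an adjusted p under 0.05. For Gm24494, Snord43, Gm23301, Gm24837 and Peg10 the WT point is filled and the KO point lies near 0, and for Snord49a it is the KO point that is filled.

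Whether loss of Htt acted differently in NPC and in the stem cells they came from was tested as the KO effect in NPC minus the KO effect in mESC. Of 904 genes, edgeR called 0 (0%), with 36 at an unadjusted p under 0.05, and the DESeq2 Wald test also called 0. In simulated data the edgeR fit of this comparison recovered few true differences. It called 0% of those of 0.5, 2% of those of 1 and 11% of those of 2 on the log2 scale. In 50 of the 904, NPC and mESC each had a KO or WT group with no counts, so those genes carried no information. In mESC, Snord49a stood at 119100 and 91490 CPM of the library total in KO and 112200 and 90210 in WT, and Gm24494 at 52230 and 38760 in KO and 47820 and 36190 in WT. Neither separated the genotypes there. The difference in effect was -0.52 for Snord49a and -0.66 for Gm24494 on the log2 scale (edgeR adjusted p 1.00 for both). Peg10 had 13 and 5 counts in KO mESC and 22 and 13 in WT mESC, or 5.99 and 5.20 CPM of the library total against 9.64 and 12.65 CPM, the opposite order from NPC. Its difference in effect was 3.52 on the log2 scale, with an edgeR adjusted p of 0.143. It was called with the replicate number as a block and without WT NPC replicate 2. An effect seen in NPC and not in mESC is not shown to differ between them.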

How the data were processed

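Small RNA of KO, WT and knock-in NPC and of KO and WT mESC was analysed from the deposited table of whole-number counts per gene, which the authors made, per the submitters' processing notes, with CASAVA 1.8, STAR and HTSeq on GRCm38.p6. Trimming, the handling of reads with several matches and the strand setting are not given in the sources used here, so sense and antisense overlaps cannot be told apart. The columns named Q89 were taken as the Q92 samples, because the growth protocol gives 89 repeats. Of 55335 identifiers, 55154 matched GENCODE mouse release 21, which supplied names and positions, and the rest held 57 counts over all libraries.

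Tests used edgeR 4.0.16 in R 4.3.3 (glmQLFit and glmQLFTest, TMM scaling, filterByExpr with minimum count 10 and minimum total 15) on the 12 NPC libraries, or on 24 for the difference between cell types, with Benjamini-Hochberg adjustment over all genes tested. SE is the log2 change divided by the root of the F statistic. The fitting script was tested on simulated data. Named genes were all those called in KO against WT, up to 8 uncalled genes per direction with separate groups, at least 10 CPM and a log2 value of at least 1, up to 4 abundant members per list, and Htt. Others are marked. The members and lists were chosen with earlier results of these data known. Replicate pairs differed by more than sampling noise (chi-square per degree of freedom 33.8 in KO and 39.6 in WT), so none was counted as a repeat. The value was 19 in Q50, 3.96 in Q111, 2.57 in Q20 and 2.04 in Q92. The spread pooled over the 12 NPC libraries thus includes knock-in pairs that were closer than those of KO and WT. Alternatives were scaling by library totals or by DESeq2 size factors, the Wald test of DESeq2 1.42.0, testing with no filter, a replicate block, other sets of libraries or genes and leaving out each library.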

Additional observations from a re-analysis of the deposited data

How the results depend on the processing

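KO against WT called 6 genes. DESeq2 size factors gave 10, the DESeq2 Wald test 24 (2 higher, 22 lower, with 325 genes without an adjusted p), library totals 1, and both the fit of 4 libraries and no filter gave 0 (for no filter, 342 of 14269 genes at an unadjusted p under 0.05). Leaving out 1 library gave 0 to 22 calls, with 0 without KO replicate 1, 1 without WT replicate 1 and 22 without WT replicate 2. KO against the knock-in mean called 15, and 3 with DESeq2 size factors, 1 without the filter and 1 without Q20. Leaving out any 1 of its 10 libraries gave 1 to 7. Library totals gave 12, all higher, in place of 7 higher and 8 lower. WT against the knock-in mean called 34, and 20 to 61 with 1 library left out, with 20 without WT replicate 1, 61 without WT replicate 2, and 22 each without Q20 replicate 1, Q92 replicate 1 and Q92 replicate 2. With DESeq2 size factors the split was 36 higher and 8 lower, and without the filter 27 higher and 0 lower. The difference in KO effect between cell types called 0 to 1 genes with 1 library left out, the 1 (Peg10) without WT NPC replicate 2. The cause was not tested.

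The labels do not say that a replicate number marks a shared batch. The differences between replicates 1 and 2 correlated by 0.411 between KO and WT over 441 genes, and by -0.08 to 0.164 in the other pairs of NPC groups. The numbers were not taken as pairing the samples. The replicate block gave 8 calls in KO against WT (1 higher, 7 lower, with all 6 among them and Snord23 added at an edgeR adjusted p of 0.0477), 15 and 40 against the knock-in mean for KO and WT, and 1 for the difference between cell types.

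Depth limits the low genes: a count of 0 allowed up to 8.52 CPM of the library total in the shallower KO library, and fragments of mRNAs mostly had under 20 counts per library.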

Other observations

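The nucleolar RNA genes that did not pass the threshold in KO against WT include several whose WT libraries stood apart from the knock-in lines, chosen here after their values were seen. Snord61, a box C/D snoRNA, had 4546 and 4878 CPM in KO and 6733 and 6504 CPM in WT, separate groups with a log2 value of -0.49 ± 0.13 (SE, edgeR adjusted p 0.0624). Against the knock-in mean WT was 0.44 higher on the log2 scale (edgeR adjusted p 0.00977) and KO was at -0.05. Snord98 had 3873 and 3951 CPM in KO and 5262 and 5365 CPM in WT, with WT 0.53 above the knock-in mean (edgeR adjusted p 0.00296) and KO at 0.09. 1110038B12Rik, a noncoding transcript whose exons overlap the snoRNA genes Snord52 and Gm25744, had 1061 and 1268 CPM in KO and 2330 and 1489 CPM in WT (edgeR adjusted p 0.106 for KO against WT), and WT was 0.64 above the knock-in mean (edgeR adjusted p 0.0142). Malat1, a nuclear noncoding RNA of splicing speckles, lay the other way, with 282.7 and 228.6 CPM in KO and 103.4 and 154.7 CPM in WT (log2 value 1.00 ± 0.30, SE, edgeR adjusted p 0.106). WT was lower than the knock-in mean in Malat1 by -0.96 on the log2 scale (edgeR adjusted p 0.0219), and KO stood at 0.04 from it.

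Tnc and Slc1a3, which encode tenascin C and a glutamate transporter of radial glia and were also chosen after their values were seen, were called higher in WT than in the knock-in mean, by log2 values of 1.15 and 1.26 (edgeR adjusted p 0.0142 each). KO against WT had log2 values of -0.16 and -0.97 for them, neither called. Tnc and Slc1a3 are members of the list of radial glia and progenitor mRNAs, of which 15 were tested, and the other members were not called in WT against the knock-in mean. Together the 31 mRNAs of that list held 0.056% and 0.067% of counts in WT. That is within the range of the knock-in libraries, from 0.0345% (Q20 replicate 2) to 0.0831% (Q92 replicate 1).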
